A study of Mus musculus with 29 samples.

Results

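Neu3 is 1 of 6 neutrophil subtypes (Neu1 to Neu6) that the authors' deposited annotation gives for blood leukocytes of young male C57BL/6J mice that had stroke surgery (the middle cerebral artery closed for a limited time) or sham surgery. All cells annotated as neutrophils with the subtype Neu3 were taken, which gave 2898 of 17186 neutrophils and of 51709 blood cells. Single-cell transcripts were captured in droplets (Drop-seq). A library pooled blood of 2 mice aged 8 to 10 weeks, and the groups were sham surgery at day 2 (4 libraries), stroke at day 2 (4 libraries) and stroke at day 14 (3 libraries). All groups shared the same handling: cardiac blood, actinomycin D during processing, lysis of red cells and depletion of Ter-119+ cells. No sham library of day 14 was analysed here, so stroke and the time since surgery cannot be told apart at day 14. Libraries are separate pools of mice, so a p-value measures the spread between pools.

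Neutrophils are short-lived granulocytes that are made in the bone marrow and circulate for a short time. Their granule proteins are largely transcribed during maturation in the marrow, secondary granule genes such as Ltf (lactoferrin), Camp (cathelicidin) and Ngp before gelatinase granule genes such as Mmp8 and Mmp9. Mature cells depend on the chemokine receptor Cxcr2 and the growth factor receptor Csf3r, and hold very large amounts of S100a8 and S100a9, the subunits of calprotectin. A blood subtype defined by clustering can therefore differ from its neighbours by maturation, by an interferon response or by other transcripts.

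The label was checked against S100a8 and S100a9, its given markers. In Neu3 cells S100a8 lay between 51522 and 248567 CPM (CPM, a library's Neu3 counts scaled to a common total and by TMM) and S100a9 between 35015 and 151816 CPM in the 9 libraries with at least 20 Neu3 cells. In pooled monocytes of the same blood S100a8 was at 16.8 CPM, and in dendritic cells it was at 297 CPM. Both markers are those of neutrophils as a whole. S100a9 had a median log2 ratio of -0.27 between Neu3 and the other neutrophils of the same library and was lower in Neu3 in 8 of 9 libraries, in 8 of 8 against Neu2 and in 6 of 6 against Neu6. Against Neu1 and Neu5 its median ratio was 0.02 and -0.02.

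Neu3 was the largest subtype in all 3 libraries of day 14 and in 1 of the 8 libraries of day 2, sham replicate 4. In the sham libraries it made up 3.2%, 0.967%, 4% and 32.2% of neutrophils, with replicate 4 far above the others, where Neu2 followed with 24.6%. In the stroke libraries of day 2 the shares were 2.17%, 8.92%, 2.48% and 9.60%. In the 3 libraries of day 14 they were 75.6%, 63.9% and 82.0%, and the lowest of them was above every library of day 2. The group values were 10.1% ± 14.8 (SD, n = 4) in sham, 5.79% ± 4.02 (SD, n = 4) in stroke at day 2 and 73.8% ± 9.20 (SD, n = 3) in stroke at day 14. Without sham replicate 4 the sham value was 2.72% ± 1.57 (SD, n = 3). Counting error was small beside these differences: the 95% Wilson interval of the day 14 library with the fewest neutrophils ran from 78.4% to 85.1%.

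**Figure D1:**
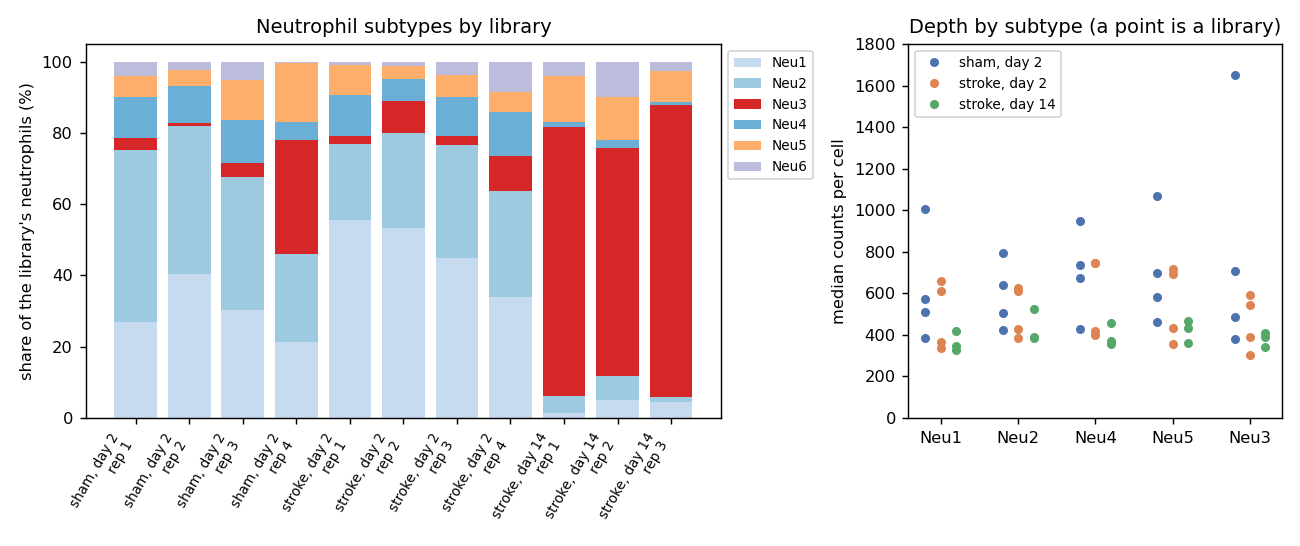
Left: share of each subtype among a library's neutrophils (%, stacked bars, 1 bar per library, Neu3 in red); right: median counts per cell by subtype, 1 point per library, for the 5 subtypes drawn, with group colours as in the legend. The red part is 63.9% to 82.0% in the day 14 libraries and at most 32.2% elsewhere, and the median Neu3 counts of the day 14 libraries lie between 339 and 408.

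Neu1, Neu2 and Neu4 made up less of the neutrophils at day 14 than in sham. Neu1 made up 29.7% ± 8.00 of sham neutrophils and 3.53% ± 1.96 at day 14, and Neu2 made up 38.0% ± 10.0 and 4.45% ± 2.70 (SD, n = 4 and n = 3). Neu4 made up 9.79% ± 3.23 and 1.49% ± 0.687. Neu5, with 9.47% ± 5.55 in sham and 11.2% ± 2.18 at day 14, and Neu6, with 2.95% ± 2.16 and 5.51% ± 3.88, overlapped between these groups. Neutrophils as a whole made up 11.4% to 22.4% of blood cells at day 14, 12.4% to 48.5% in sham and 11.7% to 69.6% in stroke at day 2. As a share of all blood cells Neu3 was 13.2% ± 3.38 at day 14 (SD, n = 3) and 2.99% ± 2.47 in stroke at day 2 (SD, n = 4). The subtypes come from clustering on expression. Of the 23 genes that set Neu3 apart and could be tested in Neu1, Neu2 and Neu4 together, 7 had an unadjusted p under 0.05 at day 14 against sham (519 of all 4508 genes did), and none passed the adjusted test of edgeR. The shares are given as a description, with no test.

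The median Neu3 cell held 339, 408 and 388 counts in the 3 libraries of day 14, beside 362, 563 and 403 counts in the other neutrophils of the same libraries. In sham replicate 1 the median Neu3 cell held 1652 counts, beside 885 counts in the other neutrophils, and in sham replicate 3 it held 706 beside 636. In the other libraries Neu3 cells were shallower than the other neutrophils. Sham replicates 2 and 4 held 379 and 487 counts and the stroke libraries of day 2 held 541, 301, 388 and 590. Restricting the share to cells with at least 400 counts gave 67.7% ± 12.7 at day 14 (SD, n = 3). Scrublet marked 17 of all blood cells as doublets, too few to have worked, and no barcode was shared between libraries among Neu3 cells.

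Within libraries, Neu3 was compared with the other neutrophils by the log2 ratio of their CPM (not TMM-scaled) after adding 10 CPM. This is a description with no test, since the subtypes come from clustering these same cells on expression. The genes used for the clustering are not given in the sources used here. Of 2532 genes at 50 CPM or more in either class, 46 (1.82%) were higher and 21 (0.829%) lower in Neu3 in all 9 libraries, together 2.65% of the genes. The median ratio over all these genes was 0.11.

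Pmaip1, which encodes the pro-apoptotic protein Noxa, was the gene highest above the other neutrophils. Its Neu3 level was 12.1, 16.3 and 36.9 CPM in sham, 36.0, 125 and 28.3 CPM in stroke at day 2 and 172, 201 and 219 CPM in stroke at day 14, and the other neutrophils held at most 59.6 CPM in any library. The median log2 ratio was 1.81, with a range of 0.64 to 2.86. Against single subtypes the median was 1.77 for Neu1, 2.13 for Neu2, 1.97 for Neu4, 1.38 for Neu5 and 2.07 for Neu6. It was thus higher than each subtype at the median, and in all libraries compared except 1 of 8 against Neu4. Its mean met the level of 50 CPM only through the day 14 libraries. In sham Neu3 held 5 counts of Pmaip1 in all, so the sign of the ratio there is near the floor. Atf3, a stress-induced transcription factor, followed with a median log2 ratio of 1.21 (0.75 to 1.85) and 105 ± 77.2 CPM in Neu3 beside 38.4 ± 36.0 CPM in the other neutrophils (SD, n = 9). The other genes on the high side were Numa1 (mitotic spindle and nuclear matrix), Pknox1 (homeodomain factor), Hnrnpll (splicing), Acsl1 (fatty acid activation), Ninj1 (plasma membrane rupture), Cmtm7, Inpp5d (the phosphatase SHIP1), Zfp652, Ostm1 and Cdc42se2, with median log2 ratios of 0.57 to 1.03. The ratio of a low gene moves with the constant added: with 1 CPM in place of 10 the median for Pmaip1 was 3.12, and with 50 CPM it was 0.80.

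Several of the genes on the low side were far from 1 subtype above all. Stfa1, a cystatin-type protease inhibitor of the stefin A family, had a median log2 ratio of -2.62 against all other neutrophils and -5.42 against Neu4. Its counts are uncertain, because the stefin A genes are near-identical copies. Rsad2 (viperin), Slfn8, Oasl2, Gbp2, Gbp7, Plscr1 and Ifitm3, which respond to interferon, had medians of -0.77 to -1.63, and for Rsad2 and Slfn8 the distance was greatest from Neu5, with -3.99 and -3.59, beside 0.95 and -0.03 against Neu1. Plscr1 was lower by a similar amount against each subtype, from -0.82 against Neu6 to -1.24 against Neu1. Lta4h, which makes leukotriene B4, and Anxa3 were furthest from Neu6, with -3.12 and -3.82. Gclm (glutathione synthesis) and Vim (vimentin) completed the 12 genes, with -0.77 and -0.74.

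**Figure D2:**
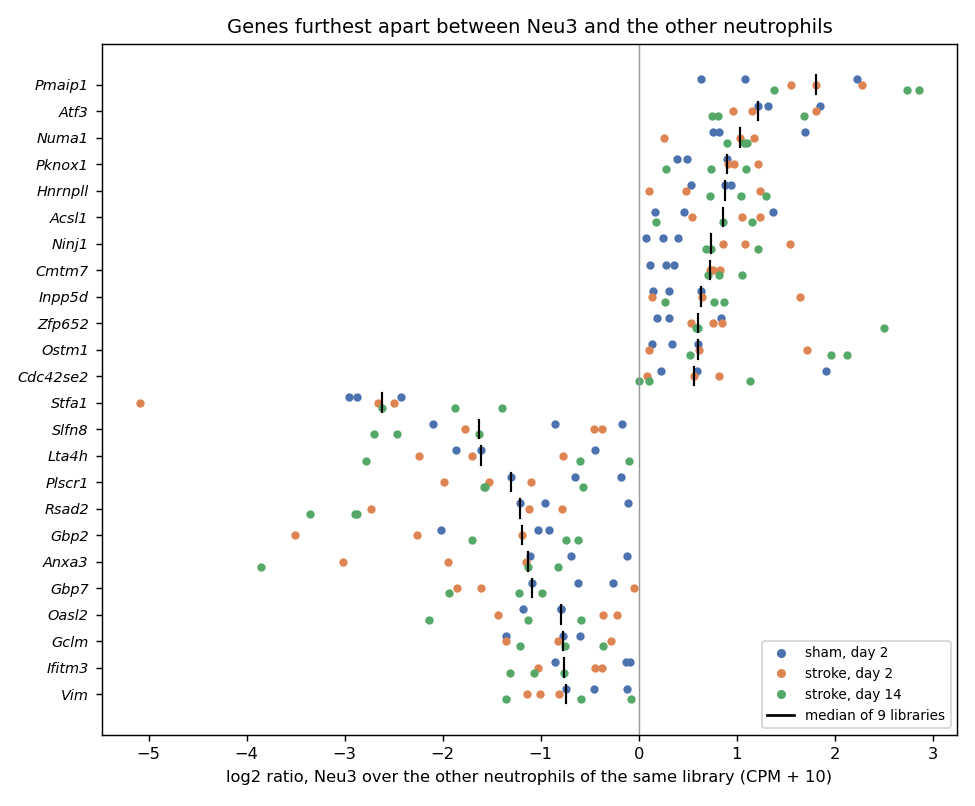
Log2 ratio of Neu3 over the other neutrophils of the same library for 24 genes (x axis, CPM + 10), 1 point per library coloured by group, with a black bar at the median of 9 libraries. All points of the 12 upper genes lie above 0 and all points of the 12 lower genes below 0, from 2.86 for Pmaip1 to -5.08 for Stfa1.

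The 30 interferon response genes summed to 13016 ± 3654 CPM in Neu3 (SD, n = 9 libraries), beside 27451 ± 2392 CPM in Neu5 (SD, n = 11), 20138 ± 5459 CPM in Neu1 (SD, n = 10) and 9082 ± 4015 CPM in Neu6 (SD, n = 8). Among them Ifit3b (-2.58), Ifit1 (-2.51), Isg15 (-2.48) and Slfn5 (-2.07) had the lowest log2 ratios to the other neutrophils, and Ifit1 was -4.89 against Neu5 and 0.00 against Neu1, Neu2 and Neu4. The 12 genes of the secondary granule list summed to 9799 ± 3988 CPM in Neu3 and to 61352 ± 43462 CPM in Neu6 (SD, n = 8). Among them Ltf was at -4.33 and Camp at -4.29 against the other neutrophils. That distance was from Neu6, with -7.78 for Ltf and -8.24 for Camp, while both lay between -0.12 and 0.00 against Neu1, Neu2, Neu4 and Neu5. Primary granule and progenitor genes, which mark the marrow stages, summed to 31.3 ± 22.5 CPM in Neu3 to 11.8 ± 9.66 CPM in Neu1 and to 249 ± 180 CPM in Neu6. NADPH oxidase, glycolysis, heat shock and transcription factor lists had median log2 ratios between 0.00 and 0.20. Over all genes at that level, the median distance of Neu3 from a subtype, regardless of sign, was 0.19 for Neu5, 0.21 for Neu1, 0.23 for Neu2, 0.24 for Neu4 and 0.46 for Neu6. Neu3 thus lay furthest from Neu6, over 6 to 9 libraries that differ in depth.

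Counts of Neu3 cells were then summed per library and compared between groups with edgeR's quasi-likelihood test. A library needed 20 Neu3 cells, which left 3 libraries a group: sham replicate 2 (12 cells) and the stroke library of day 2 with replicate number 3 (14 cells) did not enter. Neu3 sums ran from 38701 to 359081 counts, and 1930 genes were tested. Between stroke and sham at day 2 no gene passed an adjusted p of 0.05 (percent called 0), with 145 genes at an unadjusted p under 0.05 and none by DESeq2. At day 14, 147 genes (7.62%) differed from sham, 43 higher (2.23%) and 104 lower (5.39%). Scaling by library size alone, without TMM, gave 195 higher and 44 lower, and the median log2 change of all genes was 0.42 in place of 0.02. The split into higher and lower genes therefore depends on the scaling. Of the genes described here that passed the test, none changed its direction under this scaling. That says little, since the scaling moved the median by less than the changes of these genes.

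Among the neutrophil identity genes, 4 of 14 tested fell at day 14 against sham and none rose, beside 5.39% of all genes called lower. Retnlg, a resistin-like gene of neutrophils, was at 34260, 40475 and 12387 CPM in sham and at 5819, 6988 and 6649 CPM at day 14. All 3 day 14 libraries lay below all sham libraries (27.7% of all genes tested had groups that did not overlap), and the log2 change was -2.16 ± 0.42 (SE; adjusted p = 0.00296). Ly6g, the surface antigen used to sort neutrophils, was at 1034, 1081 and 122 CPM in sham and 63.8, 49.7 and 78.0 CPM at day 14, a log2 change of -3.54 ± 0.50 (SE; adjusted p = 8.75e-05). Both genes were lowest within sham in replicate 4, the library with the high Neu3 share. S100a8 went from 175211 ± 72481 to 69807 ± 15838 CPM (SD, n = 3 each), with a log2 change of -1.33 ± 0.39 (SE; adjusted p = 0.036), and S100a9 changed by -1.30 ± 0.38 (adjusted p = 0.037). Their calls were lost without sham replicate 1 (adjusted p = 0.222 and 0.203) or 3 (0.0903 and 0.101), and also without any of the day 14 libraries (0.0827 to 0.185 for S100a8, 0.0819 to 0.185 for S100a9). They were lost as well in cells with at least 400 counts (0.112 and 0.116) and without the filter on low counts (0.12 each). With the replicate number as a block the adjusted p was 0.247 and 0.245. Cxcr2, at 4923 ± 855 CPM in sham and 4875 ± 481 CPM at day 14, and Csf3r, at 1777 ± 377 and 2165 ± 245 CPM, did not pass the test (adjusted p = 0.975 and 0.508).

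**Figure D3:**
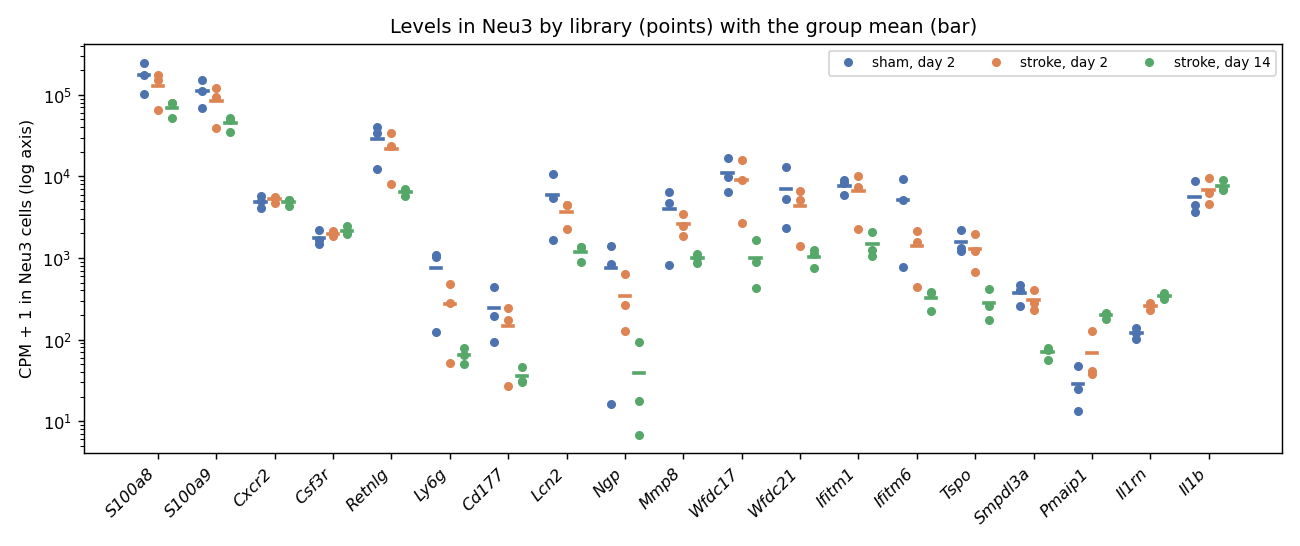
Level of 19 genes in Neu3 cells (y axis, TMM-scaled CPM plus 1, log axis) in the 9 libraries (points), with group means as bars and groups by colour. Cxcr2 and Csf3r lie level across the groups, while Retnlg, Ly6g and Wfdc17 at day 14 lie below every sham point.

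Of the 12 genes in the secondary granule list 7 could be tested, without Ltf and Camp. Of these 7, 6 fell (Ngp, Lcn2, Cd177, Ltb4r1, Anxa1 and Ly6g) and none rose, with a median log2 change of -2.29 beside 0.02 for all genes. The list is broader than granule proteins: it also holds a receptor (Ltb4r1), an annexin (Anxa1) and a surface antigen (Ly6g), which the identity list counts too. Its count and median are therefore not those of granule genes alone. Lcn2, which encodes the iron-binding lipocalin of neutrophil granules, was at 10565, 5381 and 1678 CPM in sham and 1360, 1347 and 892 CPM at day 14 (log2 change -2.29 ± 0.42, SE; adjusted p = 0.0016). Cd177, a surface glycoprotein stored in granules, was at 436, 192 and 91.5 CPM in sham and 29.0, 29.8 and 44.6 CPM at day 14 (-2.91 ± 0.50, SE; adjusted p = 0.0010), and its call was lost without sham replicate 1 (adjusted p = 0.093). Ngp was at 1383, 841 and 15.3 CPM in sham and at 5.8, 92.7 and 16.7 CPM at day 14, so the groups overlapped through sham replicate 4 although the gene passed the test (-4.22 ± 0.73, SE; adjusted p = 0.0010). Anxa1, an anti-inflammatory annexin, changed by -1.57 ± 0.36 (SE; adjusted p = 0.0080) and Ltb4r1, the leukotriene B4 receptor, by -1.70 ± 0.39 (SE; adjusted p = 0.0082). Without sham replicate 1 the adjusted p was 0.085 for Anxa1 and 0.058 for Ltb4r1, and without day 14 replicate 3 it was 0.079 for Anxa1. In the gelatinase granule and secretory vesicle list 4 of 11 fell and none rose, with 5.39% of all genes called lower: the collagenase Mmp8 (-2.02), Mmp25 (-1.29) and the formyl peptide receptors Fpr1 (-1.36) and Fpr2 (-1.40), which sense bacterial peptides. Mmp8 and Mmp25 overlapped between the groups, Mmp25 lost its call without any of the sham or day 14 libraries except sham replicate 4 (adjusted p = 0.065 to 0.60) and with library size alone (-0.83, 0.109), and Fpr2 without sham replicate 1 (0.086).

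Genes of the Wfdc and Ifitm families fell as well. Wfdc17 and Wfdc21 encode small secreted proteins with a whey acidic protein domain and are neighbours on chromosome 11 (Wfdc17 at chr11:83703991-83706268 and Wfdc21 at chr11:83746940-83752642, GENCODE vM21 on GRCm38, both protein-coding). Wfdc17 was at 16831, 6365 and 9961 CPM in sham and 1676, 894 and 429 CPM at day 14 (log2 change -3.46 ± 0.51, SE; adjusted p = 0.000118). Wfdc21 was at 13181, 5285 and 2319 CPM in sham and 1134, 1238 and 747 CPM at day 14 (-2.74 ± 0.48, SE; adjusted p = 0.0011). Neither overlapped between the groups, but named genes were chosen for this, and 27.7% of all genes tested did not overlap.

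Ifitm1, Ifitm2, Ifitm3 and Ifitm6, membrane proteins of the interferon-induced family, lie together on chromosome 7, between 140954837 (start of Ifitm2) and 141017924 (end of Ifitm6). Ifitm6 was at 9306, 5188 and 778 CPM in sham and 374, 377 and 223 CPM at day 14 (-3.95 ± 0.56, SE; adjusted p = 8.75e-05). Ifitm1 was at 9032, 5861 and 8253 CPM in sham and 2099, 1264 and 1064 CPM at day 14 (-2.38 ± 0.38, SE; adjusted p = 0.000468). Ifitm2 and Ifitm3 changed by -1.12 and -1.52 (adjusted p = 0.012 and 0.0063). Ifitm2 lost its call without sham replicate 1 (adjusted p = 0.072) or day 14 replicate 2 or 3 (0.083 and 0.097) and with library size alone (-0.71, 0.0594), and Ifitm3 without day 14 replicate 3 (0.062). These 4 genes resemble each other in sequence, so the split of reads between them is uncertain. In the interferon response list, which holds Ifitm1, Ifitm2 and Ifitm3, the other 9 of 12 tested genes did not pass the test. Of all genes tested 7.62% were called. The list's median log2 change was -0.18.

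The bases in front of the RefSeq start are shown for Ifitm6 and Cd177, the 2 of 10 named genes that fell with a TATAAA on the gene strand within 50 bases of the start. They are the 100 bases before the start in GRCm38.p6, written on the gene's strand, with that motif in capitals:
Ifitm6 (chr7:141016893-141016992, minus strand): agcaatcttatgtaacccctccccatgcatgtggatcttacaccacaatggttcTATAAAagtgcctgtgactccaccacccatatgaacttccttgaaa
Cd177 (chr7:24760312-24760411, minus strand): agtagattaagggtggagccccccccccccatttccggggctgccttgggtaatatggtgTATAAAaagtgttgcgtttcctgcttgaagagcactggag
The 10 genes are those that fell furthest among called genes whose groups did not overlap, which leaves out Ngp. Of them, 7 had an entry and 2 of them (Ifitm6 and Cd177) held TATAAA on the gene strand within 50 bases, beside 0 of 6 of those that rose and 3.15% of 27025 genes. A C/EBP-type motif (TTGCNNAA, either strand, 250 bases) was in 1 of these 7 and 1 of these 6 genes, beside 10.8% of all genes. A match is a description of letters, not of a bound site.

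Tspo, the translocator protein of the outer mitochondrial membrane, fell from 2205, 1321 and 1220 CPM in sham to 415, 258 and 173 CPM at day 14 (-2.47 ± 0.33, SE; adjusted p = 4.9e-05). Smpdl3a, a lysosomal phosphodiesterase, was at 461, 408 and 259 CPM in sham and 78.3, 72.8 and 55.7 CPM at day 14 (-2.40 ± 0.31, SE; adjusted p = 4.9e-05). Atxn10 (-2.56 ± 0.34, SE), Igfbp6, which binds insulin-like growth factors (-2.51 ± 0.53, SE), and Gyg, the primer of glycogen synthesis (-2.41 ± 0.53, SE), fell as well. Igfbp6 lost its call without sham replicate 4 (adjusted p = 0.076) and Gyg without sham replicate 1 (0.24). Of 11 glycolysis genes tested (5.39% of all genes fell) 4 fell (Gpi1, Aldoa, Gapdh and Ldha, log2 changes of -0.87 to -1.07) and none rose. None of these 4 passed the test when scaled by library size alone (adjusted p = 0.132 to 0.209) or without sham replicate 1 (0.058 to 0.156). Aldoa, Gapdh and Ldha also missed it without sham replicate 3 (0.176 to 0.206), Aldoa and Ldha without day 14 replicate 1 (0.0601 and 0.0917), and all 4 without day 14 replicate 2 (0.0626 to 0.126) or 3 (0.0643 to 0.234). S100a6 (-1.28) and Vim (-1.30) among 11 cytoskeletal and S100 genes, Clec4e (-1.13) and Pglyrp1 (-1.24) among 13 pattern recognition genes, Prdx5 (-1.22), Casp4 (-1.32) and Hif1a (-1.35) also fell. Of these, Pglyrp1 passed the test under every alternative. The calls of S100a6 and Hif1a were lost without any single sham or day 14 library other than sham replicate 4 (adjusted p = 0.0711 to 0.112 and 0.0708 to 0.298). With library size alone S100a6 (adjusted p = 0.0594), Vim (0.0695), Clec4e (0.0688), Casp4 (0.127) and Hif1a (0.0997) did not pass the test. Casp4 lost its call without sham replicate 1 (0.606) or any day 14 library (0.0881 to 0.104), Vim without sham replicate 1 (0.406) or day 14 replicate 3 (0.112), Clec4e without sham replicate 1 (0.0965), and Prdx5 without sham replicate 3 (0.0733) or day 14 replicate 2 or 3 (0.0562 and 0.0792).

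The 10 named genes that rose at day 14 against sham had 2 to 13 counts in the sham libraries together. The filter on low counts asked for 86.2 CPM in 3 libraries, and all 10 genes met it only through the day 14 libraries, where they were high. Their number is therefore no support for a rise, and their p-values were obtained on genes let in by that group. A like limit holds for Ly6g, Cd177, Igfbp6, Gyg and Smpdl3a among the named genes that fell. These reached the filter's level in 0 day 14 libraries and met it only through libraries of day 2. Pmaip1, the gene that also stood highest within libraries, was at 12.5, 24.02 and 45.8 CPM in sham and 180, 205 and 212 CPM at day 14 (log2 change 2.85 ± 0.52, SE; adjusted p = 0.00161), from 5 and 162 counts. All day 14 libraries lay above all libraries of both groups of day 2. Named genes were chosen for such groups, which 27.7% of all genes tested had against sham and 21% against stroke at day 2. In the other neutrophils the estimate for Pmaip1 was 3.64 (adjusted p = 0.084), and the difference from Neu3 did not pass the test (-0.39, adjusted p = 0.93). Atf3 and Canx passed the test in the other neutrophils too, with 2.57 and 1.80 (adjusted p = 0.040 each), and for none of the 10 genes did the difference pass (adjusted p = 0.33 to 0.99). Eif3a, a subunit of a translation initiation factor, rose from 39.9 ± 13.9 to 183 ± 16.7 CPM (SD, n = 3 each; 2.08 ± 0.44, SE; adjusted p = 0.0054). Il1rn, the natural antagonist of the interleukin-1 receptor, was at 99.7, 120 and 137 CPM in sham, 281, 231 and 264 CPM in stroke at day 2 and 336, 371 and 318 CPM at day 14. It rose at day 14 against sham by 1.53 ± 0.30 (SE; adjusted p = 0.00278), the only one of 9 cytokine genes tested to pass. Pmaip1, Eif3a and Il1rn passed the test under every alternative. Canx (calnexin) had 2 counts in sham and 101 at day 14, a ratio of 14.6 with an exact counting interval of 3.93 to 122. Lipa (lysosomal acid lipase), Aim2 (a DNA sensor), Csf1 (the macrophage growth factor), Matr3, Mtdh, Atf3 and Abcg1 (a cholesterol exporter) rose by 1.57 to 2.17, and each lost its call without sham replicate 1 (adjusted p = 0.0847 to 0.347). Aim2, Csf1, Matr3, Atf3 and Abcg1 also lost it without sham replicate 3 (0.0668 to 0.154), Lipa, Matr3 and Atf3 without day 14 replicate 1 (0.0601 to 0.0881), Aim2, Matr3, Atf3 and Abcg1 without day 14 replicate 2 (0.0652 to 0.113), and Csf1, Matr3, Atf3 and Abcg1 without day 14 replicate 3 (0.0614 to 0.112). H2-K1, a class I major histocompatibility gene, rose by 1.08 (adjusted p = 0.0312) although its groups overlapped, and Dnaja1, a heat shock co-chaperone, by 1.24 (0.0339). By DESeq2 Matr3, Atf3, Abcg1, H2-K1 and Dnaja1 did not pass (adjusted p = 0.0736 to 0.128), nor did Mmp25, Aldoa, Gapdh, Casp4 and Hif1a among the genes that fell (0.0554 to 0.0998). H2-K1 lost its call without sham replicate 1 (0.23) or 3 (0.156) or day 14 replicate 1 (0.139) or 3 (0.0604), and Dnaja1 without sham replicate 3 (0.107) or 4 (0.146) or day 14 replicate 2 (0.0835) or 3 (0.103). Of the 5 NADPH oxidase and 11 ageing and trafficking genes tested 0 passed the test, beside 7.62% of all genes, so the count does not set these lists apart.

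Against stroke at day 2, 63 genes (3.26%) differed at day 14, 9 higher (0.466%) and 54 lower (2.8%). Scaling by library size alone gave 12 higher and 16 lower, and a median of all genes of 0.31 in place of 0.04. This comparison shares the day 14 libraries with the one against sham. Wfdc17 was at 15696, 2690 and 8947 CPM in stroke at day 2, all above the day 14 libraries (log2 change -3.18 ± 0.50, SE; adjusted p = 0.000495). Named genes were chosen for groups that did not overlap, and 21% of all genes tested had such groups. Tspo (-2.16), Atxn10 (-2.17), Smpdl3a (-2.07), Ifitm1 (-2.15) and Tarm1, an activating receptor of myeloid cells (-2.15), fell as well and passed the test under every alternative. Il1r2, the decoy receptor of interleukin-1, was at 1829, 1230 and 1086 CPM in stroke at day 2 and 357, 424 and 490 CPM at day 14 (-1.69 ± 0.25, SE; adjusted p = 0.000468), and its call also held under every alternative. In the identity list 4 of 14 genes fell (Retnlg, Hdc, Il1r2 and Ly6g) and in the secondary granule list 5 of 7 (Ngp, Lcn2, Cd177, Ltb4r1 and Ly6g), with medians of -0.49 and -1.63 beside 0.04 for all genes. With library size alone Hdc, Ly6g, Lcn2 and Ltb4r1 did not pass the test (adjusted p = 0.053 to 0.141). Retnlg, Hdc, Ly6g, Lcn2, Cd177 and Ltb4r1 lost their calls without stroke day 2 replicate 1 (adjusted p = 0.0605 to 0.221), and these and Ngp without stroke day 2 replicate 4 (0.166 to 0.413). Each of the 7 also lost it without at least 1 of the day 14 libraries (0.0552 to 0.194). By DESeq2 Ngp (adjusted p = 0.304), Ly6g (0.276), Hdc (0.101), Ltb4r1 (0.0834), Ifitm6 (0.256), Wfdc21 (0.134), Pmaip1 (0.0581), Ptafr (0.0803), Fam111a (0.0723), Fpr2 (0.0581), Gpi1 (0.0538) and Hif1a (0.134) did not pass in this comparison. Ifitm6 (-2.11), Wfdc21 (-2.08) and Crispld2, a secreted protein (-1.98), fell too, and each lost its call without stroke day 2 replicate 4 (0.0872 to 0.166). Ifitm6 and Wfdc21 also lost it without stroke day 2 replicate 1 (0.143 and 0.0818) or day 14 replicate 3 (0.171 and 0.115), Ifitm6 without day 14 replicate 1 or 2 (0.0681 and 0.0629), and Ifitm6 and Crispld2 with library size alone (0.053 each).

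Of the other lists, Fpr1 (-1.12), Fpr2 (-1.10), the cytokine Osm (-1.75), Gpi1 (-0.80), Hif1a (-1.33) and Clec4e (-1.09) fell against stroke at day 2, and Hsp90ab1, a heat shock protein, rose by 1.68. With library size alone none of the 6 that fell passed the test (adjusted p = 0.0707 to 0.19). All 7 lost their calls without stroke day 2 replicate 1 (0.0502 to 0.177), Fpr1, Fpr2, Gpi1, Hif1a and Clec4e without replicate 4 (0.0872 to 0.627), Osm and Hsp90ab1 without replicate 2 (0.118 and 0.0751), and all but Osm without at least 1 of the day 14 libraries (0.0538 to 0.195). Gpi1 and Hif1a also lost theirs without sham replicate 3 (0.069 and 0.052). On the high side stood Mtdh (2.00), Pmaip1 (1.87), Ptafr, the receptor of platelet-activating factor (1.16), Lst1 (1.13) and Fam111a (0.87), each of which lost its call without stroke day 2 replicate 4 (0.158 to 0.314). Pmaip1, Ptafr, Lst1 and Fam111a also lost it without stroke day 2 replicate 1 (0.0605 to 0.185) or day 14 replicate 2 (0.0578 to 0.113), Pmaip1, Ptafr and Fam111a without day 14 replicate 3 (0.0716 to 0.127), and Ptafr without stroke day 2 replicate 2 (0.0844). Mtdh and Pmaip1 met the filter on low counts only through the day 14 libraries, where they were high. Their p-values have the limit given for the comparison with sham. Ly6g, Cd177 and Smpdl3a, which fell in this comparison, met the filter only through libraries of day 2.

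Between stroke and sham at day 2 the smallest p-values belonged to Ckap4 (-1.62), Il1r2 (1.2), Sla (1.38), Hnrnpc (1.12) and Pnpla2 (1.32), all with an adjusted p of 0.126 in edgeR. Il1r2 was at 561, 841 and 427 CPM in sham, below all 3 stroke libraries of day 2. The groups did not overlap for 224 genes (11.6%), and none of them passed the test.

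The same group comparison was made in the other neutrophils, where 82 of 4586 genes (1.79%) differed between day 14 and sham, and in Neu1, Neu2 and Neu4 alone, where 8 of 4508 (0.177%) did, and the difference of the effects was tested with the library as a block. At day 14 the other neutrophils were mostly Neu5 and Neu6, so the difference was also tested against Neu1, Neu2 and Neu4 alone. Of 3064 genes, 39 (1.27%) had a different effect at day 14 against sham in Neu3 than in the other neutrophils, and 11 of 2733 (0.402%) against Neu1, Neu2 and Neu4. The corresponding numbers were 21 (0.685%) and 8 (0.293%) for day 14 against stroke at day 2, and 1 (0.0326%) and 0 for stroke at day 2 against sham. Ly6g fell by 3.54 in Neu3, and the difference from the effect in Neu1, Neu2 and Neu4 was -2.17 (adjusted p = 0.0014). Ifitm6 (-1.48, adjusted p = 0.0016), Wfdc21 (-1.27, 0.00056), Lcn2 (-1.06, 0.0042), Mmp8 (-1.51, 3.5e-05) and Ngp (-4.58, 5.5e-13) had a lower effect in Neu3 than in these 3 subtypes as well. In the 3 subtypes themselves none of these 6 genes passed the test, and the estimate for Ngp was 0.59 (adjusted p = 0.85). These subtypes held few cells at day 14. In day 14 replicate 3 Neu1, Neu2 and Neu4 were 4.35%, 1.58% and 0.791% of 506 neutrophils, beside 415 Neu3 cells. A gene that did not pass there is therefore not shown to be unchanged, and the numbers of called genes are not comparable with those of Neu3. The differences against these 3 subtypes were not recomputed with a library left out. Their mix also differed between libraries: in day 14 replicate 1 Neu1 and Neu2 were 1.30% and 4.82% of neutrophils. The median log2 ratio of Neu3 to Neu1 and to Neu2 was 0.91 and -1.07 for Mmp8. It was 1.35 and -0.59 for Ngp, and -0.27 and -1.75 for Ly6g. The part of this mix in the differences was not tested, so they are not shown to be effects in Neu3 alone. Il1b, which encodes interleukin-1 beta, was at 3625, 4444 and 8771 CPM in sham and 8933, 6802 and 6955 CPM at day 14 in Neu3, where its change of 0.43 did not pass the test (adjusted p = 0.449). Its effect was higher by 0.93 than in Neu1, Neu2 and Neu4 (adjusted p = 0.0024). For Wfdc17 the change in Neu1, Neu2 and Neu4 was -2.89 (adjusted p = 0.0018), for Ifitm1 -2.39 (0.0047) and for Tspo -2.35 (0.025), and the difference from Neu3 did not pass the test (-0.54, -0.02 and -0.08, adjusted p = 0.55, 0.99 and 0.95).

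**Figure D4:**
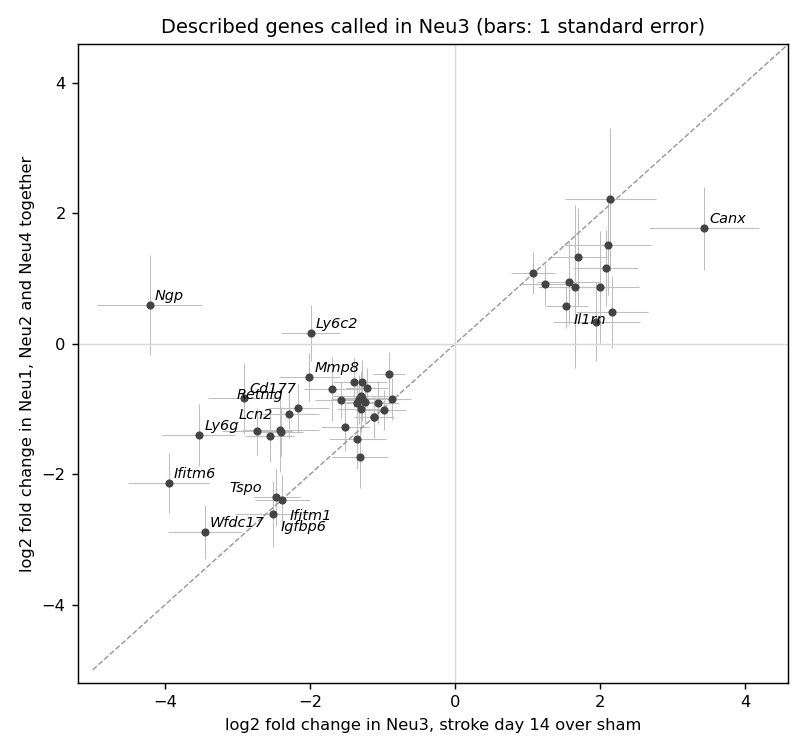
Log2 fold change at day 14 over sham in Neu3 (x axis) and in Neu1, Neu2 and Neu4 together (y axis) for 49 genes called in Neu3, 1 point per gene, with bars of 1 standard error and a dashed line of equal change. Tspo and Ifitm1 lie near the line, and Ly6g and Ifitm6 lie to its left, with changes of -3.54 and -3.95 in Neu3 and of -1.40 and -2.14 in the other 3 subtypes.

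Markers of other blood cells were low in Neu3. The 10 monocyte markers summed to 856 CPM in pooled Neu3 cells, beside 13356 CPM in monocytes, and their range was 742 to 1117 CPM in sham and 764 to 887 CPM at day 14. One of them, Ly6c2, a surface antigen of monocytes, was at 934, 601 and 153 CPM in sham and 174, 142 and 100.3 CPM at day 14 and fell by 2.00 on the log2 scale (adjusted p = 0.00443). Its groups overlapped through sham replicate 4, and its call was lost without sham replicate 1 (0.147). The 10 B cell markers summed to 146 CPM beside 26096 CPM in B cells, with Cd79a, Ebf1 and Pax5 at 0. That sum was 0.228 to 135 CPM in sham and 145 to 309 CPM at day 14, and nearly all of it was Ighm, the immunoglobulin heavy chain, which rose by 2.14 against sham (adjusted p = 0.0367; 0.444 by DESeq2) from 9 counts in sham. Its call was lost without sham replicate 1 (0.262) or 3 (0.137) or day 14 replicate 1 (0.18) or 3 (0.0614). Against stroke at day 2, with 3 counts, it passed the test (0.00461) and did not without stroke day 2 replicate 4 (0.193) or by DESeq2 (0.261). Ighm met the filter on low counts only through the day 14 libraries, where it was high, so its p-values carry that limit. In these libraries Neu3 held 309, 145 and 172 CPM of Ighm (not TMM-scaled). The other neutrophils of the same libraries held 270, 155 and 145 CPM. The part of Ighm in the other results was not tested. T cell and NK cell markers summed to 15.2 and 6.82 CPM.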

How the data were processed

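Blood cells of 11 Drop-seq libraries were analysed. The authors deposited estimated counts per gene and cell, which are not whole numbers and were made by a step not given in the sources used here, for 16623 genes, with the authors' deposited cell annotation and a mitochondrial percent per cell. Seurat and mm10 are named in the submitters' processing notes, and the aligner and the counting step are not given in the sources used here. Counts of Neu3 cells were summed per library, rounded, and tested with edgeR 4.0.16 (R 4.3.3, TMM, quasi-likelihood, Benjamini-Hochberg adjustment, adjusted p under 0.05) in libraries with at least 20 Neu3 cells. DESeq2 1.42.0 was an alternative.

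Within libraries, genes at 50 CPM or more were compared after adding 10 CPM. Named were the 12 highest and 12 lowest genes of the same sign in every library, in each group comparison the 10 highest and 10 lowest called genes whose libraries did not overlap, 5 each way for differences of effects, and called genes of the lists. Left out of the ranked choices were predicted, haemoglobin, ribosomal and mitochondrial genes, and the antigen receptor genes of B and T cells. Genes over 10 times higher in another blood type were left out of them too. The members and lists were chosen with earlier results of these data known. Coordinates are from GENCODE vM21, promoters from RefSeq on GRCm38.p6. On simulated data the test recovered 61.4% of genes changed by 1 and 98.8% of those changed by 2 (log2), over 1438 genes for day 14 against sham. Only changed genes that passed the filter again were scored, 83 of each size. The counts were drawn with the trend of the spread in place of each gene's own. Recovery in the real data can therefore be lower. Intervals cover counting error only.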

Additional observations from a re-analysis of the deposited data

Results flagged for a closer look

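Sham replicate 4 had a Neu3 share of 32.2% of neutrophils, and its gap to the nearest sham library was 0.903 of the group's range. Chance flags about 1 in 20 groups, and 10 groups were tested.

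The effect of day 14 against sham differed between Neu3 and the other neutrophils of the same libraries, by a test of the difference (log2), for Il1b (0.98), Gpcpd1 (0.90), Ltf (-9.60), Ngp (-7.78), Adpgk (-5.14), Cmpk2 (-3.38) and Cd177 (-2.82). For Ltf, Neu3 held 5 counts in sham and 1 at day 14, so its fitted value is no measure of size. Among these, Ngp passed the test under every alternative. The other neutrophils are a class whose make-up differs between the groups. Of all neutrophils, Neu1 made up 29.7% in sham and 3.53% at day 14, and Neu6 made up 2.95% and 5.51%. The differences are therefore not effects in Neu3 alone. The difference for Il1b did not pass the test without sham replicate 1 (adjusted p = 0.23) or day 14 replicate 2 (0.064), and that for Cd177 without sham replicate 1 (0.23) or day 14 replicate 2 (0.70) or against Neu1, Neu2 and Neu4 alone (0.0585). Ltf (0.999) and Adpgk (0.102) did not pass without sham replicate 1, and Adpgk did not against Neu1, Neu2 and Neu4 alone (0.0502). Gpcpd1 did not pass without any of the sham libraries or day 14 replicate 1 or 2 (0.0739 to 0.264) or against those 3 subtypes (0.462), and Cmpk2 did not without any of the sham libraries or day 14 replicate 2 (0.0573 to 0.307) or without the filter on low counts (0.061).

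Against stroke at day 2 the effects differed for Il1rap (1.43), Ifitm1 (0.99), Gpcpd1 (0.89), Ltf (-5.43), Adpgk (-4.81), Ngp (-4.70), Camp (-3.95) and Cmpk2 (-3.14). Adpgk and Ngp passed the test under every alternative. The make-up of the other neutrophils differs here too. Of all neutrophils, Neu1 made up 47.0% in stroke at day 2 and 3.53% at day 14, and Neu6 made up 3.61% and 5.51%. These differences are therefore not effects in Neu3 alone either. Camp was at 2.78, 58.8 and 5.82 CPM in Neu3 at day 14, beside 1369, 15651 and 2031 CPM in the other neutrophils (not TMM-scaled). For Ltf, Neu3 held 8 counts in stroke at day 2 and 1 at day 14. Without stroke day 2 replicate 4 the adjusted p was 0.996 for Ltf, 0.721 for Camp, 0.10 for Il1rap and 0.243 for Cmpk2, and without day 14 replicate 2 it was 0.264 for Ltf and Il1rap, 0.111 for Ifitm1 and 0.192 for Gpcpd1 and Cmpk2. Ifitm1 also missed the threshold without stroke day 2 replicate 2 (0.173) or day 14 replicate 3 (0.0724). Gpcpd1 missed it without sham replicate 3 (0.0536), stroke day 2 replicate 1 or 2 (0.213 and 0.147) or day 14 replicate 1 (0.12) and with library size alone (0.0638) or counts rounded up (0.0555). Cmpk2 missed it without sham replicate 3 (0.0536), stroke day 2 replicate 1 or 2 (0.0895 and 0.198) or day 14 replicate 3 (0.0579), without the filter (0.117) and with counts rounded up (0.0774). Against Neu1, Neu2 and Neu4 alone the adjusted p was 0.81 for Ifitm1, 0.392 for Il1rap and 0.327 for Gpcpd1.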

How the results depend on the processing

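For day 14 against sham, 147 genes passed the test, 239 with library size alone, 81 with the replicate number as a block, 90 in cells with at least 400 counts, and 51 (without sham replicate 1) to 222 (without sham replicate 4) when 1 library was left out. With the block Canx, Matr3, Mtdh, Atf3, Abcg1 and Dnaja1 among the genes that rose lost their calls (adjusted p = 0.0655 to 0.288). So did S100a8, S100a9, Igfbp6, Ltb4r1, S100a6, Gpi1, Aldoa, Ldha, Hif1a and Prdx5 among those that fell (0.0636 to 0.247). For day 14 against stroke at day 2 the 63 genes became 28 with library size alone, 31 with the block, and 23 to 109 when 1 library was left out. With the block Mtdh, Pmaip1, Ptafr and Fam111a on the high side lost their calls there (adjusted p = 0.125 to 0.247). Ngp, Wfdc21, Retnlg, Hdc, Lcn2, Ltb4r1, Fpr1, Fpr2, Osm, Gpi1, Hif1a and Clec4e did so on the low side (0.0506 to 0.318). For day 2 the count of 0 became 7 without the filter on low counts and 0 to 4 when 1 library was left out. Differences of effects numbered 39, 21 and 1 for the 3 comparisons, 11, 8 and 0 against Neu1, Neu2 and Neu4 alone, and 4 to 69, 7 to 33 and 0 to 2 when 1 library was left out. The log2 ratio of Neu3 shares between day 14 and stroke at day 2 was 3.99, and 2.81 with all blood cells as the total. Neutrophils made up 18.2% of blood cells at day 14 and 47.8% in stroke at day 2 (group means), which enters the second ratio. Leaving out a library leaves fewer samples and also changes which genes are tested. In place of 1930 genes, 2212 were tested without sham replicate 1 and 2561 without sham replicate 4. In cells with at least 400 counts 1638 were tested, and 11960 without the filter. The cause of the changes in the counts of genes was not tested. Cxcr2, which never passed the test, changed sign: for day 14 against sham to 0.39 with library size alone, 0.19 without the filter, 0.11 without sham replicate 1, 0.0822 without day 14 replicate 1 and 0.00953 without the top 5% of Scrublet scores (an alternative chosen after seeing the data, as was Neu1, Neu2 and Neu4 alone); for day 14 against day 2 to 0.12 with library size alone and 0.0844 without the filter; and for day 2 to -0.0195 in cells with at least 400 counts. With 1 library left out Cxcr2 ranged from -0.038 to 0.224 for day 2 against sham and from -0.159 to 0.112 for day 14 against sham. Replicate numbers are not said to pair libraries. Same-numbered libraries correlated at -0.09 to 0.34, which cannot show whether any of them shared processing. The median mitochondrial percent of Neu3 cells was 0.084 in sham replicate 1 and 0.065 in stroke day 2 replicate 1. In the other libraries it was 0.50 to 2.12, and its part in the results was not tested. The technical batch alternative was not run, since no batch is named. Neu3 sums of 38701 to 359081 counts limit what low genes can show.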
